A study of Mus musculus with 12 samples.

Results

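The genes described here are those of respiratory complex I, chosen as every row of the expression table whose gene symbol starts with Nduf, which gave 45 of its 11289 genes. They comprised 7 core subunits, 29 accessory subunits, 7 assembly factors of the Ndufaf series, and the pair Ndufa4 and Ndufa4l2. Complex I, the NADH:ubiquinone oxidoreductase of the inner mitochondrial membrane, passes electrons from NADH to ubiquinone in its peripheral arm and pumps protons through its membrane arm. Its core subunits carry the catalytic centres, its accessory subunits surround and stabilise them, and assembly factors help to build the complex without remaining in it. Hepatocytes hold many mitochondria, and complex I reoxidises the NADH that fatty acid oxidation and amino acid catabolism form there.

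Poly-A RNA of whole liver was sequenced from 12 C57BL/6J mice that the labels give as 8 to 10 weeks old, with 4 mice in each of 3 groups. The Con A + PBS mice received concanavalin A (Con A), a lectin from jack beans that stimulates T cells and causes hepatitis, at 15 mg/kg into the tail vein, and PBS into a vein 30 min later. The Con A + hWJ-MSCs mice received the same Con A and then 2000000 human umbilical cord mesenchymal stromal cells in place of PBS, cells that the study takes from Wharton's jelly. Livers were collected 24 h later, and the labels name no injection for the control mice, so the part of the injections themselves cannot be told apart from that of Con A. No group received the cells without Con A. The study's text states another age and another cell number than the labels.

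The values are scores, whole numbers that the authors normalized between mice, and the number of reads behind them is unknown. Before any comparison, 5 mice stood apart over these genes. Control mouse 1 had the highest score of the control group in 41 of 45 genes, control mouse 4 had the lowest in 32, and Con A + PBS mouse 4 had the lowest of its group in 33. Their median deviations from the mean of their group were 0.43, -0.27 and -0.29 on the log2 scale. Con A + PBS mouse 2 had the highest score of its group in 32 of 45 genes and Con A + hWJ-MSCs mouse 4 the lowest in 33, with median deviations of 0.21 and -0.15. When all genes were divided into 10 equal bins of transcript length, these 5 mice, in the order named, deviated by 0.14, -0.11, -0.10, 0.06 and -0.05 over the shortest bin and by -0.11, 0.11, 0.07, -0.07 and 0.11 over the longest. The complex I genes have short transcripts, with a median of 934 bases against 2755 for the table, and 34 of 45 lay in the shortest 2 bins.

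The livers expressed the hepatocyte markers, of which 14 of 15 were in the table and none was at 0 in every mouse of a group. Their summed score lay between 1153492 and 1682900 in the control mice, between 714590 and 765685 after Con A + PBS and between 733281 and 815196 after Con A + hWJ-MSCs. In each mouse at least 10 genes shared the largest score of the table. Whether markers stood at that value, where a change would not show in the sum, was not examined. Con A + PBS lowered 9 of the 14 relative to control (64.3%, against 19.2% of all genes), with a median log2 fold change of -1.56, and 1 of 14 was higher with the cells than with PBS (7.14%, against 4.2%). Leukocyte markers summed to between 2043 and 2453, between 2992 and 4412 and between 2494 and 3955 in the 3 groups in the same order, with 7 of 12 in the table and none at 0 throughout a group. Macrophage and neutrophil markers, of which 12 of 14 were in the table with none at 0 throughout a group, summed to between 4338 and 6973, between 2470 and 3919 and between 1963 and 3966. That sum covers opposite changes, since 6 of the 12 were called higher and 6 lower after Con A + PBS (50% each, against 19.5% and 19.2% of all genes), with log2 fold changes from -4.90 to 5.06. In whole tissue, fewer cells of a type and less RNA per cell cannot be told apart, and the part of these markers in the complex I values was not tested.

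Upstream sequence is shown for 4 genes that differed in how they moved: Ndufs8, the core subunit called lower in both comparisons with control, Ndufa11, an accessory subunit without a call, Ndufaf1, an assembly factor called in both comparisons with Con A + PBS, and Ndufaf4, the assembly factor called higher with the cells than in control. Each line holds the 120 bases before the RefSeq transcript start in GRCm38.p6, 5′ to 3′ on the strand of the gene, at chr19:3912775-3912894 (minus), chr17:56717642-56717761 (plus), chr2:119662835-119662954 (minus) and chr4:24897963-24898082 (plus). Capitals mark a match to the motif of NRF1 (GCGCA and GCGC with any 1 base between them), a factor known for activating respiratory genes, or of the ETS family (CCGGAAG), searched on both strands.
Ndufs8: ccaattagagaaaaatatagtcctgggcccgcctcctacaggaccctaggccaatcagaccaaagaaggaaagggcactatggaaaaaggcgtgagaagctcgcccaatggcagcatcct
Ndufa11: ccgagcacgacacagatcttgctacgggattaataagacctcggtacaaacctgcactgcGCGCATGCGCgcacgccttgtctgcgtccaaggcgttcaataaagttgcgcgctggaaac
Ndufaf1: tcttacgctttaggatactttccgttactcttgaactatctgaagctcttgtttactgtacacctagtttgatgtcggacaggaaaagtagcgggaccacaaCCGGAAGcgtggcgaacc
Ndufaf4: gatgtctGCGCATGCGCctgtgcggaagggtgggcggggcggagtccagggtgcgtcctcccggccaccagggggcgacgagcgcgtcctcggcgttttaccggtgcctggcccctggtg
Within 250 bases upstream, the NRF1 letters stood in 7 of the 39 complex I genes that had a window (17.9%) and in 9.69% of all genes of the table that had one. The ETS letters stood in 4 of 39 (10.3%, against 15.7%), those of YY1 (AAGATGGCG) in 0 (against 1.46%) and those of the oestrogen-related receptors (CAAGGTCA) in 1 (2.56%, against 1.17%). Ndufs5 held both the NRF1 and the receptor letters, at separate positions. The 7 genes with the NRF1 letters were Ndufa5, Ndufa8, Ndufa11, Ndufb4, Ndufs5, Ndufs6 and Ndufaf4, of which 2, Ndufb4 and Ndufs5, were called lower after Con A + PBS and the other 5 were not, where 48.9% of the 45 genes and 19.2% of all genes were called lower. A match of letters is a description of the window and was not tested as a binding site.

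The first question was how the complex I genes differed between injured and control livers. Con A + PBS lowered 22 of 45 genes (48.9%), where 19.2% of all 11289 genes were called lower, and raised 1, Ndufa4l2, where 19.5% of all genes were called higher. Calls required a fold change over 1.5 and, in limma, a p under 0.05 after Benjamini-Hochberg adjustment over all genes. The median log2 fold change was -0.63 over the 45 genes and 0.05 over all genes, and 41 of 45 values were negative. In 23 of 45 genes (51.1%) every Con A + PBS mouse lay below every control mouse, against 23.4% of all genes. Leaving out control mouse 1 or Con A + PBS mouse 4 reduced the 22 calls to 13 in either case, and 11 of the 22 calls held when any single mouse was left out.

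The second question was how the genes differed when the cells followed Con A. Relative to Con A + PBS, the Con A + hWJ-MSCs livers had higher scores of 11 of 45 genes (24.4%), where 4.2% of all genes were called higher, and a lower score of 1, again Ndufa4l2, where 4.38% were called lower. The median log2 fold change was 0.58 over the 45 genes and 0.00 over all genes, and 44 of 45 values were positive. In 36 of 45 genes (80%) every mouse with the cells lay above every Con A + PBS mouse, against 11.9% of all genes. Most of the 11 calls were lost when any 1 of 6 of the 8 Con A mice was left out, while their log2 fold changes stayed positive, between 0.52 and 1.31, with adjusted p values between 0.00890 and 0.124 over all fits without 1 mouse. None remained without Con A + PBS mouse 1, without Con A + hWJ-MSCs mouse 2 or without Con A + hWJ-MSCs mouse 3, 2 remained without Con A + PBS mouse 4 or without Con A + hWJ-MSCs mouse 1, and 3 without Con A + PBS mouse 3. The number rose to 19 without Con A + PBS mouse 2 and to 18 without control mouse 1. With control mouse 4 and Con A + PBS mouse 4 both left out, 1 call remained here, and 22 genes were called lower after Con A + PBS, of which 20 were among the first 22.

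Transcript length moved with both comparisons of the livers with the cells. Over all genes the median log2 fold change with the cells ran from 0.19 in the shortest of the 10 length bins to -0.19 in the longest, and 7.97% of genes were called higher in the shortest bin. With the cells relative to control it ran from 0.14 to -0.17, with 19.8% of genes called higher in the shortest bin and 5.64% in the longest. When each mouse was centred within these bins, 5 of the 11 genes stayed called higher, and 21 of the 22 stayed called lower after Con A + PBS. The 5 were Ndufa7, Ndufaf3, Ndufb2, Ndufb4 and Ndufs5. The plot of log2 values in each mouse shows the 3 groups and the mice named above.

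**Figure D1:**
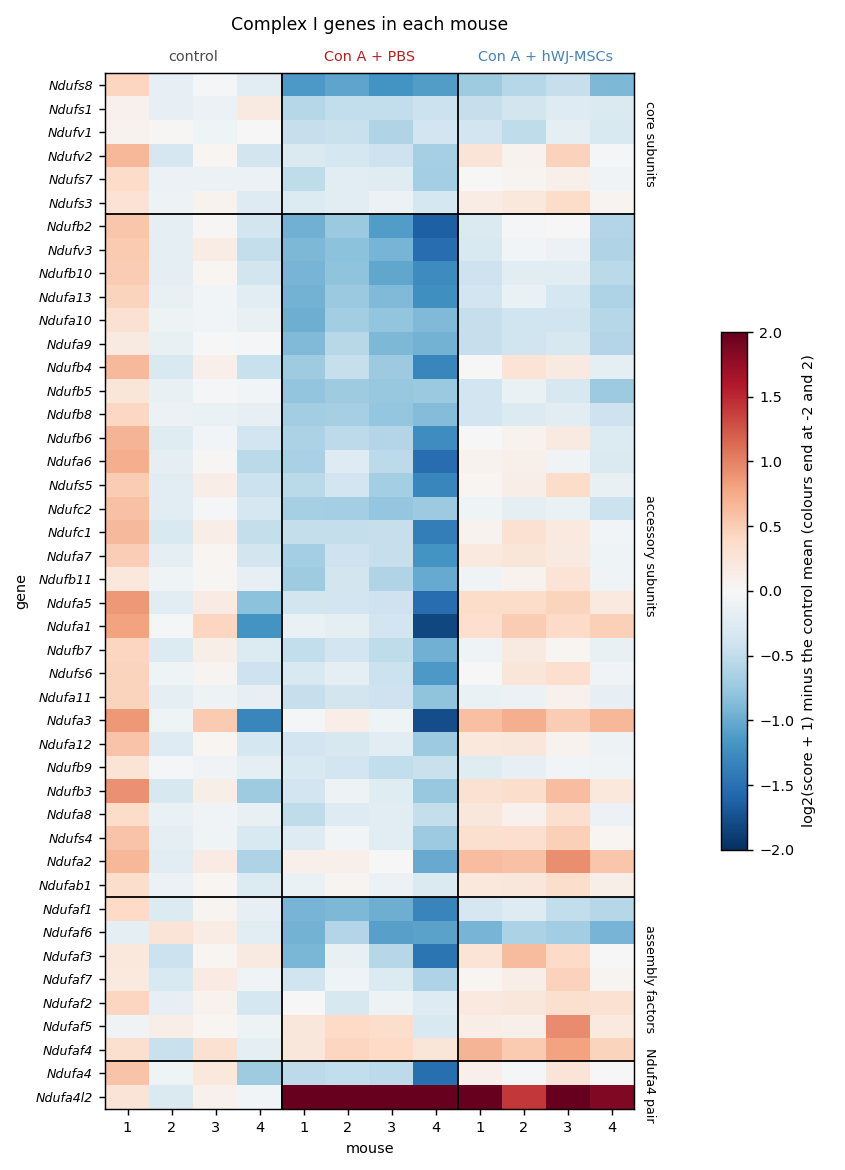
Heat map of 44 of the 45 complex I genes (rows, by class and by their change after Con A) in the 12 mice (columns), as log2(score + 1) minus the mean of the 4 control mice, with blue below and red above control. Most rows are blue in the 4 Con A + PBS mice and near white with the cells, while Ndufa4l2 in the last row exceeds the colour range of 2 after Con A + PBS.

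The third comparison set the livers with the cells against control. The scores were higher for 2 of 45 genes (4.44%), Ndufa4l2 and Ndufaf4, where 13.6% of all genes were called higher, and lower for 2 (4.44%), Ndufs8 and Ndufaf6, where 13.1% were called lower. The median log2 fold change was 0.09 over the 45 genes, with 19 values below 0 and 26 above, and 0.04 over all genes. Of these 4 calls, those of Ndufa4l2 and Ndufaf6 held when any single mouse was left out. All 3 comparisons share mice, so their values stand side by side and are not independent of each other.

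Con A + PBS lowered 1 of 7 core subunits, Ndufs8 (14.3%, against 19.2% of all genes), and the median log2 fold change of the 7 was -0.43. In limma 0 core subunits were called between the 2 Con A groups (against 4.2% of all genes called higher). Of the 7, 4 had an unadjusted p under 0.05, as did 3906 of all 11289 genes. An adjusted p under 0.05 was found for 2 of 7 and for 1485 of all genes. In 4 of 7 (57.1%, against 11.9% of all genes) every mouse with the cells lay above every Con A + PBS mouse. The median log2 fold change was 0.43 (0.23 in bins of transcript length and 0.26 in bins of gene length). In the third comparison 1, again Ndufs8, was called lower between the cells and control (14.3%, against 13.1%). All log2 fold changes of single genes below are given with their SE, from limma over the 12 mice, and positions are those of the gene in GENCODE M21. The table names 1 transcript for each gene, which is protein-coding for 41 of the 45 genes but, among others, a retained-intron transcript for Ndufs1 and Ndufb10 and a processed transcript for Ndufs3. Whether a score is that of the gene or of the named transcript is not given in the sources used here, so the scores of these 3 genes may not measure the coding mRNA. Ndufs8 (chromosome 19, 3908863 to 3912774, mm10), an iron-sulphur subunit next to the quinone site, had scores of 1736, 1152, 1252 and 1115 in the control mice, 582, 624, 564 and 595 after Con A + PBS and 788, 869, 940 and 692 after Con A + hWJ-MSCs. Every Con A + PBS mouse lay below every other mouse of the study, and every mouse with the cells lay between the other groups without overlap. The log2 fold change was -1.13 ± 0.14, adjusted p = 4.04e-05 after Con A + PBS, and -0.66 ± 0.14, adjusted p = 0.00293 with the cells relative to control. Between the Con A groups it was 0.47 ± 0.14, adjusted p = 0.0487, under the limit of 1.5-fold.

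The electron entry site is formed by Ndufv1, Ndufv2 and Ndufs1. Ndufv1 (chromosome 19, 4007384 to 4012806), which binds NADH and its flavin, had scores of 2121, 2036, 1886 and 2010 in the control mice, 1458, 1484, 1321 and 1546 after Con A + PBS and 1535, 1414, 1760 and 1635 after Con A + hWJ-MSCs. The control mice lay above all others and the 2 Con A groups overlapped, with log2 fold changes of -0.47 ± 0.10, adjusted p = 0.00132 after Con A + PBS and 0.12 ± 0.10, adjusted p = 0.377 with the cells relative to it. Ndufs1 (chromosome 1, 63143596 to 63176833), the largest iron-sulphur subunit, had scores of 2004, 1686, 1740 and 2128 in the control mice, 1272, 1344, 1344 and 1400 after Con A + PBS and 1361, 1462, 1568 and 1540 after Con A + hWJ-MSCs. It showed the same order of groups, at -0.49 ± 0.10, adjusted p = 0.00126 and 0.14 ± 0.10, adjusted p = 0.318, and both genes remained lower than in control with the cells at adjusted p = 0.0127 for Ndufv1 and 0.0153 for Ndufs1, with folds under 1.5. Ndufv2 (chromosome 17, 66078638 to 66101559), its smaller iron-sulphur partner, had scores of 3200, 1600, 2062 and 1568 in the control mice, 1649, 1581, 1508 and 1278 after Con A + PBS and 2400, 2128, 2762 and 1963 after Con A + hWJ-MSCs. Its control mice were spread widely and overlapped with the Con A + PBS mice (-0.43 ± 0.20, adjusted p = 0.0899), whereas every mouse with the cells lay above every Con A + PBS mouse (0.62 ± 0.20, adjusted p = 0.0604).

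Ndufs3, Ndufs7 and Ndufs8 belong to the module that passes electrons to ubiquinone. Ndufs7 (chromosome 10, 80249121 to 80256794), which carries the last iron-sulphur cluster, had scores of 1666, 1194, 1188 and 1188 in the control mice, 911, 1120, 1099 and 804 after Con A + PBS and 1300, 1340, 1386 and 1238 after Con A + hWJ-MSCs. The Con A + PBS mice lay below both other groups, with log2 fold changes of -0.41 ± 0.14, adjusted p = 0.0234 after Con A + PBS and 0.43 ± 0.14, adjusted p = 0.0552 with the cells. Ndufs3 (chromosome 2, 90894634 to 90904827), a scaffold of the same module, had the smallest absolute change of the core subunits after Con A + PBS, with scores of 2020, 1554, 1748 and 1390 in the control mice, 1381, 1418, 1538 and 1309 after Con A + PBS and 1852, 1918, 2138 and 1724 after Con A + hWJ-MSCs. Its control and Con A + PBS mice overlapped (-0.24 ± 0.12, adjusted p = 0.116), and the mice with the cells lay above the Con A + PBS mice (0.43 ± 0.12, adjusted p = 0.0408).

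**Figure D2:**
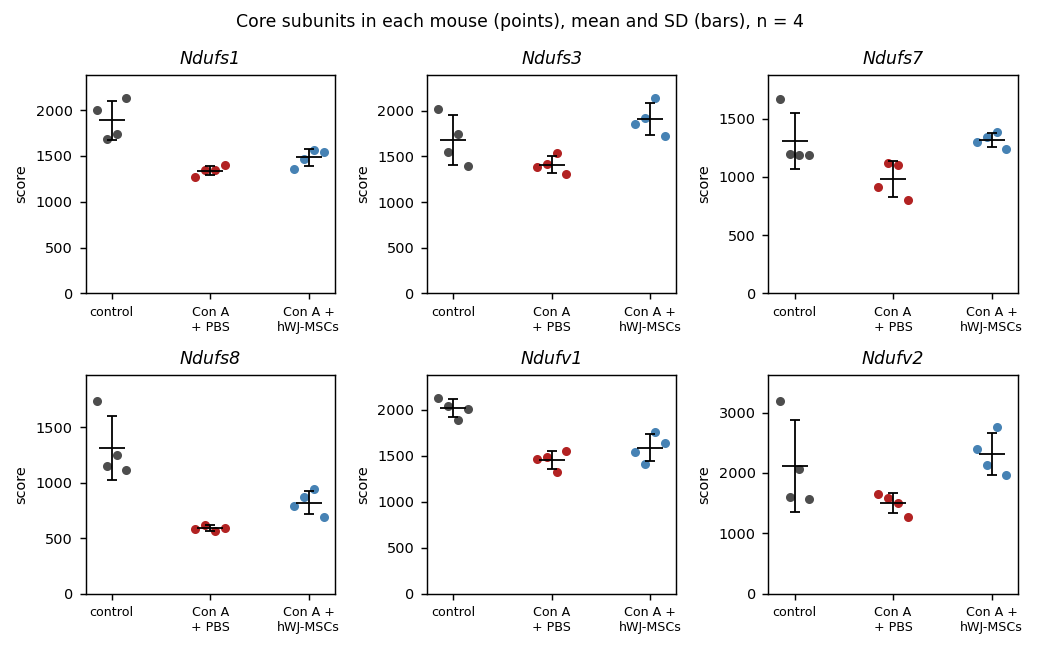
Scores of 6 nuclear core subunits in each mouse (points, 4 per group) with the group mean and SD (bars), each panel on a linear axis from 0. The Ndufs8 scores after Con A + PBS, 564 to 624, lie below all others of that gene, and in the Ndufs1 and Ndufv1 panels both Con A groups lie below control.

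Accessory subunits were 17 of the 22 genes called lower. After Con A + PBS 17 of 29 were thus lower (58.6%, against 19.2% of all genes), none was higher, and all 29 log2 fold changes were negative, from -1.11 to -0.12 with a median of -0.69. With the cells relative to Con A + PBS, 9 of 29 were called higher (31%, against 4.2% of all genes) and all 29 values were positive, from 0.27 to 1.06 with a median of 0.66. In 26 of 29 the mice with the cells lay above all Con A + PBS mice (89.7%, against 11.9%). Relative to control, limma called 0 of 29 with the cells, where 13.6% of all genes were called higher and 13.1% lower. The median was 0.05, with a range of -0.46 to 0.67 over the genes, and its sign was not stable. It was 0.22 without control mouse 1, lay between -0.08 and 0.00 without control mouse 2 or 4 or Con A + hWJ-MSCs mouse 2 or 3, and was -0.10 in bins of transcript length and in bins of gene length. In that comparison the adjusted p was under 0.05 for 3 of 29 and the unadjusted p for 6, against 4604 and 5564 of all 11289 genes.

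By position in the complex, 5 of 16 peripheral arm subunits, core ones included, were called lower after Con A + PBS (median -0.48), 5 of 9 of the proximal membrane arm (median -0.70) and 8 of 10 of the distal membrane arm (median -0.75), where 19.2% of all genes were called lower. With the cells, 2 of 16, 2 of 9 and 5 of 10 were called higher than after Con A + PBS, where 4.2% of all genes were, at medians of 0.57, 0.58 and 0.69. The 10 distal subunits, which sit around the proton pumps farthest from the peripheral arm, were Ndufb2 to Ndufb11. Ndufab1 was left out of these counts because it sits in both arms. The distal subunits without a call after Con A + PBS were Ndufb3 (-0.37 ± 0.28, adjusted p = 0.273) and Ndufb9 (-0.40 ± 0.11, adjusted p = 0.00737).

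Among distal subunits, 5 were called in both comparisons. Ndufb2 (chromosome 6, 39592574 to 39603382), a small membrane subunit, had scores of 1276, 754, 879 and 669 in the control mice, 444, 520, 398 and 279 after Con A + PBS and 706, 856, 862 and 580 after Con A + hWJ-MSCs. Every Con A + PBS mouse lay below every other mouse, and the log2 fold changes were -1.11 ± 0.22, adjusted p = 0.0012 after Con A + PBS and 0.89 ± 0.22, adjusted p = 0.0316 with the cells. Ndufb10 (chromosome 17, 24722060 to 24724478), a subunit with disulphide bonds facing the intermembrane space, had scores of 2160, 1328, 1562 and 1178 in the control mice, 794, 871, 736 and 632 after Con A + PBS and 1132, 1308, 1306 and 1042 after Con A + hWJ-MSCs. Its groups were separated in the same way, with changes of -1.01 ± 0.17, adjusted p = 0.000394 and 0.66 ± 0.17, adjusted p = 0.0338.

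Ndufb4 (chromosome 16, 37647170 to 37654453), a subunit at the contact with complex III in supercomplexes, had scores of 1736, 904, 1192 and 814 in the control mice, 681, 808, 670 and 450 after Con A + PBS and 1108, 1336, 1254 and 983 after Con A + hWJ-MSCs. The Con A + PBS mice, at 450 to 808, lay just below the lowest control mouse at 814 and below all mice with the cells, with log2 fold changes of -0.80 ± 0.23, adjusted p = 0.0108 and 0.86 ± 0.23, adjusted p = 0.0358. Ndufb6 (chromosome 4, 40270591 to 40279421) had scores of 1479, 786, 890 and 714 in the control mice, 596, 648, 616 and 392 after Con A + PBS and 919, 972, 1052 and 769 after Con A + hWJ-MSCs. The changes were -0.75 ± 0.22, adjusted p = 0.0122 and 0.74 ± 0.22, adjusted p = 0.0474, and the second call was lost in 8 of 12 fits that left out 1 mouse. Ndufb11 (chromosome X, 20615326 to 20617619), an X-linked membrane subunit, had scores of 1911, 1568, 1685 and 1480 in the control mice, 1008, 1276, 1086 and 826 after Con A + PBS and 1581, 1729, 1994 and 1568 after Con A + hWJ-MSCs. Its changes were -0.67 ± 0.14, adjusted p = 0.00146 and 0.72 ± 0.14, adjusted p = 0.0199, with no overlap between the Con A + PBS mice and either other group. The second call was lost in 3 of 12 such fits, and also in bins of transcript length and of gene length. Over the 11 genes called higher with the cells, the fits that lost the call numbered from 3 to 9 of 12.

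In the proximal membrane arm, Ndufc1 and Ndufs5 were called in both comparisons. Ndufs5 (chromosome 4, 123712710 to 123718202), which faces the intermembrane space, had scores of 1296, 788, 996 and 676 in the control mice, 624, 699, 570 and 368 after Con A + PBS and 933, 996, 1176 and 818 after Con A + hWJ-MSCs. Con A + PBS mouse 2, at 699, lay above control mouse 4, at 676, and the other mice were separated, with log2 fold changes of -0.73 ± 0.22, adjusted p = 0.0151 and 0.82 ± 0.22, adjusted p = 0.0375. Ndufc1 (chromosome 3, 51404677 to 51408988), a small membrane subunit, had scores of 1149, 592, 809 and 531 in the control mice, 526, 528, 536 and 281 after Con A + PBS and 770, 908, 838 and 706 after Con A + hWJ-MSCs. Control mouse 4, at 531, fell within the Con A + PBS range, and the changes were -0.70 ± 0.25, adjusted p = 0.0306 and 0.82 ± 0.25, adjusted p = 0.0486, of which the second was lost in 9 of 12 fits that left out 1 mouse.

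Ndufa10 and Ndufa13 changed most in this arm after Con A + PBS and were not called with the cells. Ndufa10 (chromosome 1, 92439010 to 92473860), which resembles nucleoside kinases, had scores of 2774, 2088, 2172 and 2016 in the control mice, 1144, 1380, 1294 and 1222 after Con A + PBS and 1629, 1698, 1698 and 1518 after Con A + hWJ-MSCs. The 3 groups did not overlap, with the mice with the cells in between, at -0.84 ± 0.11, adjusted p = 7.11e-05 after Con A + PBS, 0.38 ± 0.11, adjusted p = 0.0478 with the cells relative to it and -0.46 ± 0.11, adjusted p = 0.00695 relative to control. Ndufa13 (chromosome 8, 69894180 to 69902558), also studied as the cell death regulator GRIM-19, had scores of 2522, 1666, 1775 and 1576 in the control mice, 959, 1110, 1009 and 794 after Con A + PBS and 1416, 1692, 1458 and 1206 after Con A + hWJ-MSCs. Its log2 fold changes were -0.95 ± 0.16, adjusted p = 0.00038 and 0.58 ± 0.16, adjusted p = 0.0403, the latter just under the limit of 1.5-fold.

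In the peripheral arm, Ndufa7 and Ndufv3 were the accessory subunits called in both comparisons. Ndufv3 (chromosome 17, 31520115 to 31531331), which sits at the NADH end, had scores of 1626, 984, 1258 and 810 in the control mice, 609, 640, 592 and 394 after Con A + PBS and 916, 1086, 1042 and 742 after Con A + hWJ-MSCs. Every Con A + PBS mouse lay below all other mice, with changes of -1.04 ± 0.22, adjusted p = 0.00154 and 0.77 ± 0.22, adjusted p = 0.0408. Ndufa7 (chromosome 17, 33824572 to 33838317), a subunit of the quinone module, had scores of 2074, 1309, 1526 and 1151 in the control mice, 924, 1103, 1079 and 645 after Con A + PBS and 1694, 1748, 1668 and 1398 after Con A + hWJ-MSCs. It changed by -0.69 ± 0.20, adjusted p = 0.0105 and 0.82 ± 0.20, adjusted p = 0.0272, and the control and Con A + PBS mice were separated by the gap between 1103 and 1151.

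Ndufab1 (chromosome 7, 122085403 to 122101886), the mitochondrial acyl carrier protein, which also serves fatty acid and lipoate synthesis, had the smallest change of the accessory class after Con A + PBS. Its scores were 2000, 1459, 1626 and 1296 in the control mice, 1442, 1635, 1459 and 1290 after Con A + PBS and 1826, 1852, 2009 and 1706 after Con A + hWJ-MSCs. Control and Con A + PBS mice overlapped (-0.12, 95% interval -0.40 to 0.17), and the mice with the cells lay above the Con A + PBS mice (0.35 ± 0.13, adjusted p = 0.0871). The other accessory subunits called lower after Con A + PBS were Ndufa6 (-0.74), Ndufa9 (-0.82), Ndufb5 (-0.75), Ndufb7 (-0.59), Ndufb8 (-0.75) and Ndufc2 (-0.71), all as log2 fold changes. Those without a call in any comparison were Ndufa1, Ndufa2, Ndufa3, Ndufa5, Ndufa8, Ndufa11, Ndufa12, Ndufb3, Ndufb9, Ndufs4 and Ndufs6, from -0.67 (Ndufa5) to -0.19 (Ndufa2) after Con A + PBS.

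Large differences without a call came from the genes that varied most between mice of a group. With the cells relative to Con A + PBS, the log2 fold change was 1.06 ± 0.46, adjusted p = 0.122 for Ndufa3, 1.05 ± 0.41, adjusted p = 0.0972 for Ndufa1 and 1.01 ± 0.32, adjusted p = 0.0551 for Ndufa5, each exceeding that of every called accessory subunit. Their pooled SDs within groups, on the log2 scale, were 0.75, 0.68 and 0.53, against 0.10 for Ndufv1 and 0.11 for Ndufs1, the lowest of the 45 genes. Across the 45 genes this SD had a Spearman correlation with transcript length of -0.30, as a description over genes that share their 12 libraries. The log2 fold change had one of -0.04 with length after Con A + PBS and -0.29 with the cells relative to Con A + PBS.

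**Figure D3:**
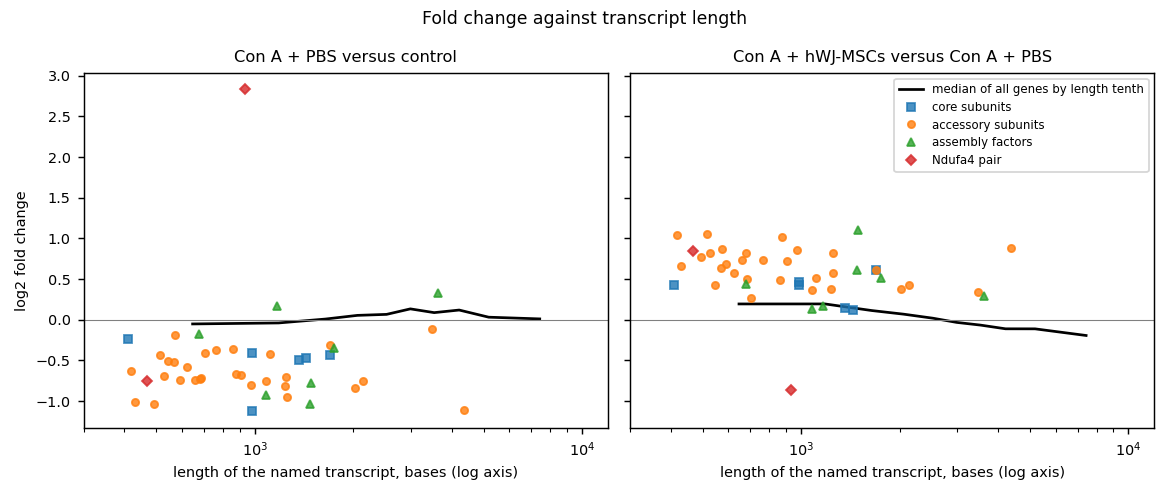
Log2 fold change of 44 of the 45 complex I genes (symbols by class) against the length of the transcript the table names, on a log axis, with the median of all genes in each of 10 length bins (line). In the left panel the line stays near 0 while most genes lie below it, and in the right panel the line runs from 0.19 for the shortest to -0.19 for the longest bin, with Ndufa4l2 as the one gene below 0.

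Among assembly factors, Con A + PBS lowered 3 of 7 (42.9%, against 19.2% of all genes), the median log2 fold change was -0.34, and 2 values were positive. With the cells 2 of 7 were called higher than after Con A + PBS (28.6%, against 4.2%), all 7 values were positive and the median was 0.44. In 5 of 7 the mice with the cells lay above all Con A + PBS mice (71.4%, against 11.9% of all genes). Relative to control, 1 was called higher and 1 lower with the cells, 14.3% each, near the 13.6% and 13.1% of all genes.

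Ndufaf1 (chromosome 2, 119655446 to 119662827), which helps to build part of the membrane arm, had scores of 522, 326, 410 and 352 in the control mice, 208, 211, 201 and 158 after Con A + PBS and 312, 331, 280 and 266 after Con A + hWJ-MSCs. Every Con A + PBS mouse lay below all other mice, with log2 fold changes of -1.03 ± 0.15, adjusted p = 0.000122 after Con A + PBS and 0.61 ± 0.15, adjusted p = 0.0292 with the cells. Ndufaf3 (chromosome 9, 108565537 to 108567434), which acts with Ndufaf4 on the quinone module, had scores of 224, 144, 200 and 219 in the control mice, 102, 174, 130 and 70 after Con A + PBS and 234, 301, 254 and 196 after Con A + hWJ-MSCs. Con A + PBS mouse 2 lay within the control range and the changes were -0.78 ± 0.25, adjusted p = 0.0174 and 1.10 ± 0.25, adjusted p = 0.0252, the larger one being that with the cells. Without Con A + PBS mouse 4, the call of Ndufaf3 after Con A + PBS was lost.

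Ndufaf4 (chromosome 4, 24898083 to 24905001), the partner of Ndufaf3, had scores of 566, 332, 562 and 398 in the control mice, 532, 610, 594 and 538 after Con A + PBS and 728, 650, 792 and 620 after Con A + hWJ-MSCs. The mice with the cells lay above all other mice, and the log2 fold changes were 0.33 ± 0.16, adjusted p = 0.107 after Con A + PBS, 0.29 ± 0.16, adjusted p = 0.222 with the cells relative to it and 0.62 ± 0.16, adjusted p = 0.00974 relative to control. This last call was lost without control mouse 2, control mouse 4 or Con A + hWJ-MSCs mouse 3, and when mice were centred by transcript length or by GC content. Ndufaf6 (chromosome 4, 11051045 to 11076205), an early assembly factor, had scores of 139, 190, 176 and 136 in the control mice, 82, 105, 74 and 75 after Con A + PBS and 83, 102, 98 and 83 after Con A + hWJ-MSCs. Both Con A groups lay below all control mice and overlapped each other, with changes of -0.92 ± 0.16, adjusted p = 0.000409 after Con A + PBS, 0.13 ± 0.16, adjusted p = 0.588 between them and -0.79 ± 0.16, adjusted p = 0.00202 with the cells relative to control.

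Ndufaf5 (chromosome 2, 140170649 to 140203689), which modifies Ndufs7, had the smallest change of the class, with scores of 101, 117, 110 and 99 in the control mice, 125, 141, 136 and 86 after Con A + PBS and 117, 114, 206 and 122 after Con A + hWJ-MSCs. All 3 groups overlapped, and the log2 fold change after Con A + PBS was 0.17, 95% interval -0.27 to 0.61. Ndufaf2 and Ndufaf7, a methyltransferase, were not called in any comparison, with log2 fold changes after Con A + PBS of -0.18 and -0.34 and with the cells relative to it of 0.44 and 0.51.

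Ndufa4 and Ndufa4l2 were named as complex I subunits, and Ndufa4 is now counted as a subunit of complex IV. Ndufa4l2 is its paralog, known as a target of hypoxia-inducible factor. Ndufa4 (chromosome 6, 11900292 to 11907497) had scores of 6762, 4289, 5255 and 2762 in the control mice, 3166, 3232, 3166 and 1592 after Con A + PBS and 4840, 4465, 5400 and 4568 after Con A + hWJ-MSCs. Control mouse 4 fell within the Con A + PBS range, and the mice with the cells lay above it, with log2 fold changes of -0.76 ± 0.27, adjusted p = 0.0308 after Con A + PBS and 0.84 ± 0.27, adjusted p = 0.0566 with the cells. Its first call was lost without control mouse 1, without control mouse 3 or without Con A + PBS mouse 4.

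Ndufa4l2 (chromosome 10, 127514967 to 127517154) had scores of 50, 34, 44 and 40 in the control mice, 308, 330, 252 and 328 after Con A + PBS and 200, 112, 219 and 152 after Con A + hWJ-MSCs. The 3 groups were fully separated, and control was lowest. Each gene of the table reaches 64 in at least 2 mice, and all control scores of Ndufa4l2 lay below 64. It is thus in the table only through the Con A groups, where it is high, and its comparisons with control are not independent of that selection. The log2 fold change was 2.83 ± 0.20, adjusted p = 6.18e-07 after Con A + PBS (7.13-fold), -0.87 ± 0.20, adjusted p = 0.0259 with the cells relative to Con A + PBS (1.83-fold lower) and 1.96 ± 0.20, adjusted p = 1.92e-05 with the cells relative to control. The calls against control held when any single mouse was left out, whereas the call between the Con A groups was lost for 4 of 12 mice. These 4 were Con A + PBS mice 1 and 4 and Con A + hWJ-MSCs mice 2 and 3.

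The Ndufa4l2 score was between 0.739% and 1.45% of the Ndufa4 score in the control mice, between 7.96% and 20.6% after Con A + PBS and between 2.51% and 4.13% with the cells. Per kilobase of transcript, the mean scores of Ndufa4l2 were 45.0, 326 and 183 in the 3 groups, and those of Ndufa4 were 10186, 5959 and 10295. The log2 ratio was -6.73 ± 0.45 (SD, n = 4) in control, -3.14 ± 0.60 after Con A + PBS and -4.85 ± 0.33 with the cells. It differed by 3.59 between Con A + PBS and control, by -1.71 between the cells and Con A + PBS and by 1.88 between the cells and control, in each case with exact permutation p = 0.0286 (two-sided, adjusted p = 0.0286 over 3 comparisons), the smallest p that 4 against 4 mice allow. In none of the 3 comparisons did the ratios of the groups overlap. The ratio tests against control share the limit given above, since Ndufa4l2 is in the table only through the Con A groups. The exons of Ndufa4l2 overlap those of Shmt2, a serine and glycine enzyme gene on the opposite strand, which was called lower after Con A + PBS (-0.81 ± 0.09, adjusted p = 2.3e-05), the other direction from Ndufa4l2.

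**Figure D4:**
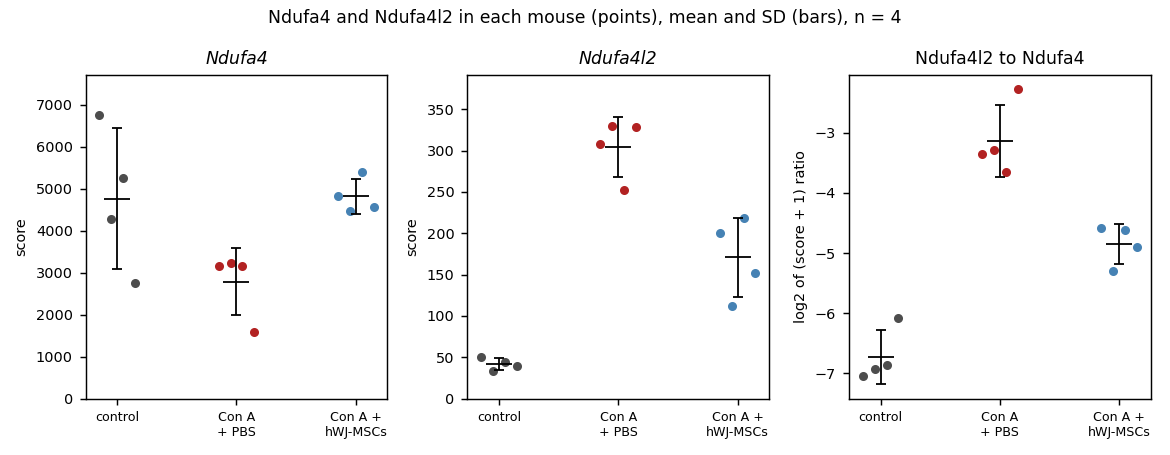
Scores of Ndufa4 and Ndufa4l2 and the log2 ratio of Ndufa4l2 to Ndufa4 (with 1 added to each score) in each mouse (points, 4 per group), with the group mean and SD (bars). The ratio runs from -7.05 to -6.07 in control, from -3.65 to -2.28 after Con A + PBS and from -5.30 to -4.59 with the cells.

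Levels per kilobase differed between the classes. In control livers the median of the group mean scores per kilobase was 1383 over the core subunits, 1452 over the accessory subunits and 132 over the assembly factors. After Con A + PBS the 3 medians were 1001, 881 and 105, and with the cells they were 1339, 1442 and 166. Among accessory subunits in control, Ndufb10 was highest at 3621 per kilobase and Ndufb2 lowest at 205. These levels divide by the length of the transcript that the table names, and for Ndufs1, Ndufs3 and Ndufb10, among others, that transcript is not protein-coding. Both extremes depend on that choice. The named transcript has 430 bases for Ndufb10 and 4371 for Ndufb2, while the median over the coding transcripts of each gene is 629 and 2413.

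The SD between mice was largest in control and smallest with the cells, as a description of 4 mice in each group, and the spread was not tested. The mean log2(score + 1) over the 36 core and accessory subunits was 10.30 ± 0.35 (SD, n = 4 mice) in control, 9.70 ± 0.25 after Con A + PBS and 10.29 ± 0.12 with the cells. It ranged from 9.95 to 10.77, from 9.34 to 9.91 and from 10.14 to 10.42, so that the Con A + PBS mice lay below both other groups. No test is given for this mean over chosen genes.

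Genes of the same pathway outside the Nduf series were described beside them. Of 10 other complex I assembly genes, 3 were called lower after Con A + PBS (30%, against 19.2% of all genes), among them Aifm1 (-0.93) and Acad9 (-0.85), and 0 higher. In limma 0 of the 10 were called between the Con A groups (against 4.2% of all genes called higher). An unadjusted p under 0.05 was found there for 5 of 10 and for 3906 of all 11289 genes. Complex II had 2 of 4 genes lower, complex III 4 of 9, complex IV 2 of 10 and complex V 5 of 15, with none higher, at median log2 fold changes of -0.57, -0.50, -0.34 and -0.61. These were 50%, 44.4%, 20% and 33.3% of the genes, so that complex IV was near the 19.2% of all genes. With the cells relative to Con A + PBS, 1, 1, 1 and 2 genes of these complexes were called higher (25%, 11.1%, 10% and 13.3%, against 4.2%). The largest falls after Con A + PBS in complexes II and III were those of Sdhb (-1.22) and Uqcr11 (-1.24), an iron-sulphur and a small structural subunit.

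Of 13 genes that mark mitochondria in general, 3 were called higher after Con A + PBS (23.1%, near the 19.5% of all genes), 1 was called lower (7.69%, against 19.2%) and the median log2 fold change was 0.39. Tomm20, an import receptor, rose (0.90 ± 0.18, adjusted p = 0.00104), and Cs, the citrate synthase gene, fell (-0.95 ± 0.12, adjusted p = 3.57e-05). Of 13 regulators of respiratory genes, 2 were called lower (15.4%, against 19.2%) and 1 higher (7.69%, against 19.5%), the coactivator genes Ppargc1b (-1.57 ± 0.29, adjusted p = 0.000611), Ppargc1a (-0.67 ± 0.14, adjusted p = 0.00151) and Pprc1 (1.43 ± 0.32, adjusted p = 0.00253). In limma, 0 of the 13 regulators were called with the cells relative to Con A + PBS (against 4.2% of all genes called higher and 4.38% lower). Of the 13, 5 had an unadjusted p under 0.05 and 1 an adjusted p under 0.05, as did 3906 and 1485 of all 11289 genes.

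Exons of 19 of the 45 genes overlap those of another annotated gene, which is in the table for 13. Besides Shmt2 opposite Ndufa4l2, called neighbours included the one opposite Ndufs1, where Eef1b2, a translation elongation factor gene, rose after Con A + PBS (1.23 ± 0.17, adjusted p = 8.73e-05) while Ndufs1 scores were lower. Vmac stood opposite Ndufa11, with a log2 fold change of -0.69 ± 0.18, adjusted p = 0.00532 after Con A + PBS, and Tfpt opposite Ndufa3, called higher with the cells relative to control (0.61 ± 0.15, adjusted p = 0.00583). Counting by strand was not stated in the sources used here, and without it reads in the shared stretches cannot be told apart between the 2 strands. Processed pseudogenes of Ndufa11, Ndufab1, Ndufb4 and Ndufs6 are annotated, and how reads shared with them were counted was not stated. Ndufb1, Ndufaf8 and the core subunits that the mitochondrial genome encodes were not analysed here.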

How the data were processed

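Liver RNA of 12 mice, 4 in each group, was sequenced as paired reads of 150 bp. The authors deposited 1 table of scores, whole numbers in each mouse that had been normalized between mice, with a gene and 1 transcript named in each line. Whether a score is of the gene or of that transcript is not given in the sources used here. It is not a raw count, since the totals of the 12 mice, 17649654 to 17657159, differ by 0.0425% of their median and 10 genes share the largest value. The submitters' processing notes name Bowtie2 2.2.1, RSEM 1.2.18 and the build mm10, and how the scores were normalized is not given in the sources used here. Each gene reaches 64 in at least 2 mice, so low genes are absent from it. Depth is unknown, and no counting error is given. Replicates are separate animals, and the labels give no batch.

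In R 4.3.3, limma 3.58.1 (lmFit, eBayes with a trend) was fitted to log2(score + 1) over all 11289 genes and 12 mice without covariates. Calls required a fold change over 1.5 and a p under 0.05 after Benjamini-Hochberg adjustment over all genes. Fold changes on this scale understate those of low genes. The log2 ratio of Ndufa4l2 to Ndufa4 was compared between groups with an exact permutation test, two-sided. The fit was tested on simulated data. Summaries were made with scipy 1.17.1, pandas 2.3.3 and numpy 2.4.6 in Python 3.11.15, and plots with matplotlib 3.10.9. Lengths, GC content and overlaps came from GENCODE M21, in which 11168 of the named transcripts were found, and upstream sequence came from RefSeq, GRCm38.p6, for 39 of 45 genes.

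The members, classes, gene lists and tests were chosen with earlier results of these data known. Scores in every mouse are given for each core subunit, for Ndufa4 and Ndufa4l2, and in each other class for the members with the 5 largest changes among those called after Con A + PBS or with the cells, the members called in both comparisons, the member with the smallest change after Con A + PBS and any called against its class. The values of 1 core subunit are not reported here, and it is counted in its class. Of other lists, only called genes are named, at most 3 a list. Alternatives were a pseudocount of 10, quantile normalization, median centring, a mean of at least 100, no trend in eBayes, the 8 mice compared, an unadjusted p, a fold change above 2, no limit on the fold change, the replicate number as a block, 10 bins of transcript length or of GC content, and each mouse left out. Bins of the median length of a gene's coding transcripts, and leaving out control mouse 4 with Con A + PBS mouse 4, were added after seeing the data. Replicate numbers belong to different animals. The deviations of same-numbered mice correlated between -0.12 and 0.38 over genes, and the numbers were not taken as pairs.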

Additional observations from a re-analysis of the deposited data

Results flagged for a closer look

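In 11 of the 135 sets of 4 mice (45 genes in 3 groups), 1 mouse lay far from the other 3, by Dixon's test at its 95% critical value for 4 values. Chance alone flags about 1 in 20 such sets, and the sets share their mice.

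Control mouse 1 was far above the other control mice for Ndufs7, with a score of 1666, for Ndufa8, with 1860, for Ndufa11, with 1385, and for Ndufb8, with 1826. Con A + PBS mouse 4 was far below its group for Ndufa2, with 504, for Ndufa5, with 313, for Ndufc1, with 281, and for Ndufa4, with 1592. Con A + PBS mouse 2 was far above its group for Ndufa9, with 1335. Con A + hWJ-MSCs mouse 3 was far above its group for Ndufa2, with 1918, and for Ndufaf5, with 206. Ndufc1 and Ndufa4 were both called lower after Con A + PBS, and both calls were lost when Con A + PBS mouse 4 was left out.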

How the results depend on the processing

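Each count below is out of the 45 complex I genes. The 22 calls lower after Con A + PBS numbered between 19 and 28 under the alternatives other than leaving out mice, except 5 at a fold change above 2. Leaving out each mouse in turn gave 13 to 25, and 1 gene was called higher throughout. The 11 calls higher with the cells than after Con A + PBS became 19 with the replicate number as a block, 5 in bins of transcript length, 6 in bins of gene length, 21 at an unadjusted p, 20 with no limit on the fold change and 1 at a fold change above 2. They became 1 without control mouse 4 and Con A + PBS mouse 4, and 0 to 19 with single mice left out. The 1 call lower in that comparison, Ndufa4l2, became 0 without those 2 mice and at a fold change above 2, and 0 to 1 with single mice left out. With the cells relative to control, the 2 calls lower became 0 at a fold change above 2, 8 with no limit on it and 1 to 2 with single mice left out. The 2 calls higher became 1 in bins of GC content, of transcript length and of gene length, without the 2 number 4 mice and at a fold change above 2, and 1 to 4 with single mice left out. The block moved no other of these counts by over 1.5 times, and it does not pair animals.

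The median log2 fold change of the core subunits became 0.23 in bins of transcript length and 0.26 in bins of gene length between the Con A groups, and -0.13 and -0.12 between the cells and control. With single mice left out, the 3 core medians ranged from -0.48 to -0.29, from 0.34 to 0.46 and from -0.02 to 0.14, in the order of the comparisons above. The log2 ratio of Ndufa4l2 to Ndufa4 ranged from 3.30 to 3.81, from -1.88 to -1.42 and from 1.77 to 2.10 with single mice left out, where the smallest exact permutation p that 3 against 4 mice allow is 0.0571. No named call changed its direction under any of these alternatives. The causes of these changes were not tested. Without read numbers, differences of genes with low scores, such as Ndufaf5 and Ndufa4l2 in control, have no known counting error.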
